A study of Mus musculus with 8 samples.

Results

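Among the genes measured in single endothelial cells (ECs) of mouse breast tumours, 7 encode the interferon regulatory factors described here, Irf1, Irf2, Irf3, Irf5, Irf7, Irf8 and Irf9. They were taken by symbol from the 20408 genes found in any of 8 libraries, and were followed in cells with at least 1 unique molecular identifier (UMI) of Pecam1, the gene of the CD31 antigen used in the sort. Such cells numbered 7159 of 8204 (87.3%). The study sorted live CD31+ CD45- cells from tumours of female mice in 4 groups of 2 libraries, with 2 mice per group. In the spontaneous model, adult MMTV-PyMT mice carried a viral oncogene that the MMTV promoter expresses in mammary epithelium. In the implanted model, cells cultured from such tumours grew in the mammary fat pad of mice without the transgene. Tumours received PBS or 3′3′cGAMP, a cyclic dinucleotide that activates STING, and were taken 3 h later, so each model has a PBS and a cGAMP group. All samples are labelled c57bl/6 and adult, whereas the methods name FVB mice, and the strain is therefore not settled.

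Interferon regulatory factors are transcription factors that share a DNA-binding domain for repeats of the core GAAA. STING acts through the kinase TBK1, which phosphorylates IRF3, a factor kept in the cytoplasm of resting cells, and IRF3 then switches on interferon beta. Secreted type I interferon signals to a complex that holds STAT2 and IRF9, which raises many genes, IRF7 among them, which in turn widens interferon production. IRF1 is induced by interferon gamma, IRF2 competes with IRF1 for the same sites, IRF5 acts below Toll-like receptors, and IRF8 is best known from myeloid and B cells.

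Promoter sequences are shown for Irf1, Irf2 and Irf8 because these were the members whose windows held one of the motifs searched. RefSeq windows of 250 bases before to 50 after a transcript start (GRCm38.p6) matched 7 of 7 members, with 10 windows in all. Both strands were searched for 3 motifs, the interferon-stimulated response element as 2 GAAA cores on 1 strand with any 2 bases between them, the STAT site TTCNNNGAA, and the NF-kB consensus. They occur in 3.44%, 8.30% and 4.51% of 32851 full-length windows, a set that leaves out 1 chromosome. The 250 bases before each start are printed 5′ to 3′ on the plus strand with matches in capitals.
Irf1, chr11:53769764-53770013: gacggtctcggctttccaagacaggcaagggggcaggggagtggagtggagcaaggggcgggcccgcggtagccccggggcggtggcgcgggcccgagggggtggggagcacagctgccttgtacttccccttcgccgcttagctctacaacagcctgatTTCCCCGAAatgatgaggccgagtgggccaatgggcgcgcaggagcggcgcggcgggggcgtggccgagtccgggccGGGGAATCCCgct
Irf2, chr8:46739495-46739744: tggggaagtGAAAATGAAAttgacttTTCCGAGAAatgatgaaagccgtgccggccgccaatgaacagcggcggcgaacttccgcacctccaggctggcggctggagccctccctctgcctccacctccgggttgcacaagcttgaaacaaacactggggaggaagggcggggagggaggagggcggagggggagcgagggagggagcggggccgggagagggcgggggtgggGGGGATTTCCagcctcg
Irf8, chr8:120736108-120736357: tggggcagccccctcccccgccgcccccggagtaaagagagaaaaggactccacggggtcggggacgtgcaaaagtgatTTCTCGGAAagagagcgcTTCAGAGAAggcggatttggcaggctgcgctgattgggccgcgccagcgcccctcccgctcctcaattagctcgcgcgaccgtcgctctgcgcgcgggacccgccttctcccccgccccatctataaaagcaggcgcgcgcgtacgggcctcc
Counted from the transcript start, the Irf1 sequence held a STAT match at -90 to -82 and an NF-kB match at -13 to -4. The Irf2 sequence held the one interferon-stimulated response element, at -241 to -232, with a STAT match at -224 to -216 and an NF-kB match at -17 to -8. The Irf8 sequence held 2 STAT matches, at -171 to -163 and -153 to -145. No 2 of these matches overlap. Windows of Irf3, Irf5, Irf7 and Irf9 held none of the 3 motifs, which says only that these letters are not in those windows.

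The depth was 7451522 to 16338968 UMIs in the Pecam1-positive cells of a library, with 601 to 1529 such cells. Implanted cGAMP replicate 1 stood apart, since 37.9% of its Pecam1-positive cells had fewer than 2000 UMIs against 3.28% to 10.6% elsewhere, and its median was 3049 UMIs per cell. Pecam1 and Cdh5, which define ECs, were at 1025 to 1264 and 1035 to 1242 CPM in every library, where CPM are UMIs scaled to the same total in each cell. Of the other 6 endothelial markers, Kdr, Tie1 and Tek were lowest in implanted cGAMP (Tie1 122 and 143 CPM against 198 to 244 CPM elsewhere), Egfl7 was at 1656 to 1911 CPM after cGAMP and 1062 to 1238 CPM after PBS, and the summed level of all 8 was 5535 to 6660 CPM. Among these cells, 483 carried Ptprc or at least 2 leukocyte markers, 0.832% to 2.1% per PBS library, 4.63% and 6.78% in spontaneous cGAMP and 16.5% and 14.6% in implanted cGAMP. The summed level of the 11 leukocyte markers was 18.9 to 35.1 CPM after PBS, 47.2 and 37.9 CPM in spontaneous cGAMP, and 316 and 90.4 CPM in implanted cGAMP. None of the 11 was at 0 in any library. The 6 mural markers summed to 79.0 and 425 CPM in spontaneous PBS, 697 and 551 CPM in spontaneous cGAMP, 106 and 74.6 CPM in implanted PBS and 203 and 104 CPM in implanted cGAMP. The 6 epithelial markers summed to 568 to 699 CPM in spontaneous tumours, 370 and 271 CPM in implanted PBS, and 1075 and 156 CPM in implanted cGAMP. The 5 fibroblast markers summed to 13.1 to 64.6 CPM after PBS and 59.1 to 98.4 CPM after cGAMP. The part of these cells or their free RNA in the responses given here was not tested, beyond the settings that leave marked cells out. There were 7 cell barcodes found in more than 1 library, and doublets were not removed. Levels below are mean CPM over the Pecam1-positive cells of a library, fold changes are differences of log2(CPM + 1), and adjusted p values come from limma over 10424 genes.

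Irf7 had the largest response of the members to cGAMP in both models. The factor it encodes amplifies type I interferon production. Its level was 20.2 and 27.2 CPM in the spontaneous PBS libraries, 1421 and 1393 CPM in spontaneous cGAMP, 96.9 and 65.0 CPM in implanted PBS, and 1274 and 1540 CPM in implanted cGAMP. All 4 cGAMP libraries lay far above all 4 PBS libraries, and the cGAMP libraries of the models overlapped. The rise was 5.85 ± 0.19 on the log2 scale (SE) in spontaneous tumours, or 57.6-fold (adjusted p = 2.4e-07), and 4.12 ± 0.19, or 17.4-fold, in implanted tumours (adjusted p = 3.1e-06). The response was smaller in implanted tumours by 1.72 ± 0.26 (adjusted p = 0.0290 for the difference). That call was lost when any 1 of the 4 spontaneous libraries was left out, when adjusted p ranged up to 0.192. After PBS, Irf7 was 3.29-fold higher in implanted than in spontaneous tumours (log2 difference 1.72 ± 0.19, adjusted p = 0.000889). After cGAMP, the group means were 1407 ± 188 CPM in implanted and 1407 ± 20.1 CPM (SD, n = 2) in spontaneous tumours, a log2 difference of -0.01 with a 95% confidence interval of -0.42 to 0.41. The models thus differed in Irf7 after PBS, and no difference was detectable after cGAMP.

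**Figure D1:**
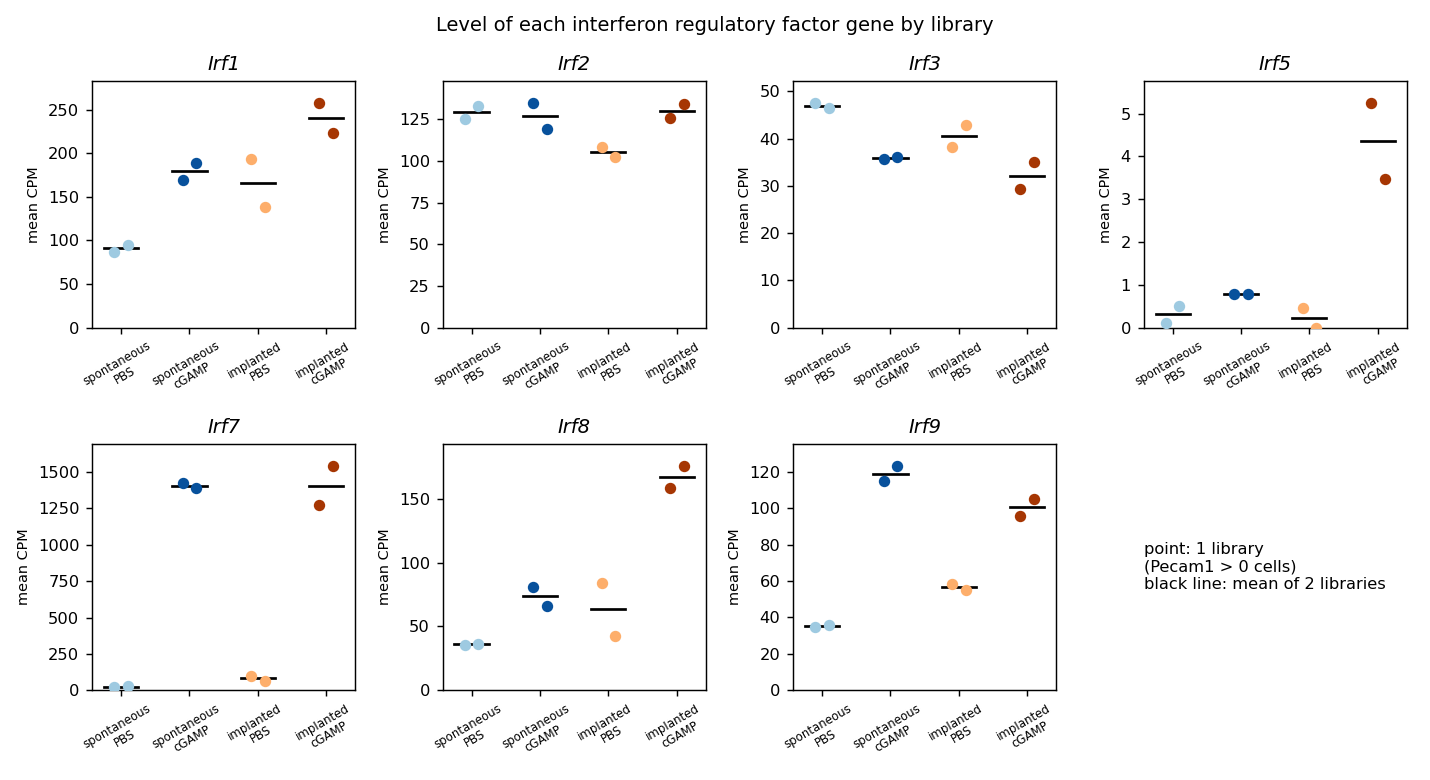
Mean level of each gene in CPM (vertical axis, from 0) in the Pecam1-positive cells of the 8 libraries. Points are libraries and black lines are means of 2. Irf7 was at 20.2 to 96.9 CPM in the 4 PBS libraries and at 1274 to 1540 CPM in the 4 cGAMP libraries. Irf2 stayed at 102 to 134 CPM. Irf3 was at 29.2 to 47.4 CPM, with the cGAMP libraries below the PBS libraries in each model, differences that did not pass the test.

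Irf7 UMIs were found in most EC droplets after cGAMP. With every cell thinned to 2000 UMIs, an Irf7 UMI was found in 2.78% and 4.87% of cells in spontaneous PBS and in 88.9% and 88.9% in spontaneous cGAMP. In implanted tumours the shares were 13.5% and 9.64% after PBS and 88.4% and 90.8% after cGAMP. Without thinning they were 11.9%, 17.1%, 97.6%, 96.7%, 40.4%, 36.2%, 86.7% and 98.7%, in the same order of libraries. The median cell held 1304 and 1250 CPM of Irf7 in spontaneous cGAMP and 1189 and 1437 CPM in implanted cGAMP, against 0 in each PBS library. Epithelial-marked cells with no Pecam1 or Cdh5 UMI also held Irf7 UMIs, in 20 of 28 cells (71.4%) of spontaneous cGAMP and 26 of 34 cells (76.5%) of implanted cGAMP, with median depths of 5792 and 1270 UMIs. The part of free RNA in the shares of either kind of cell was not tested.

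Irf9, the DNA-binding partner of STAT2, was also raised in both models. It was at 34.5 and 36.1 CPM in spontaneous PBS, 115 and 123 CPM in spontaneous cGAMP, 58.3 and 54.9 CPM in implanted PBS, and 95.6 and 105 CPM in implanted cGAMP. No groups overlapped, and the order of their means was spontaneous PBS, implanted PBS, implanted cGAMP and spontaneous cGAMP. The rise was 1.72 ± 0.09 (adjusted p = 2.0e-06) in spontaneous and 0.82 ± 0.09 (adjusted p = 0.000309) in implanted tumours. The response was thus smaller in implanted tumours by 0.91 ± 0.13 (adjusted p = 0.0241), a call that was also lost without any 1 of the 4 spontaneous libraries or implanted PBS replicate 1, and in cells thinned to 2000 UMIs, where the difference was -0.68 (adjusted p = 0.333). After PBS Irf9 was higher in implanted tumours by 0.67 ± 0.09 (adjusted p = 0.00292), which was lost only in the setting without cells marked as another type (0.64, adjusted p = 0.107). After cGAMP the difference, implanted minus spontaneous, was -0.24 ± 0.09 and did not pass the test (adjusted p = 0.111), and it was 0.07 in thinned cells. The Irf9 gene overlaps Rnf31 on the same strand, so reads in the shared part could not be told apart by position.

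Irf1, an activator that interferon gamma and NF-kB induce, rose less. Its level was 86.5 and 95.2 CPM in spontaneous PBS, 170 and 189 CPM in spontaneous cGAMP, 193 and 139 CPM in implanted PBS, and 257 and 223 CPM in implanted cGAMP. The implanted PBS libraries lay around the spontaneous cGAMP libraries, so those groups overlapped. The response was 0.97 ± 0.14 (adjusted p = 0.00256) in spontaneous and 0.55 ± 0.14 (adjusted p = 0.0220) in implanted tumours, and the difference of -0.43 ± 0.20 between them did not pass the test (adjusted p = 0.410). The implanted call was lost in 5 settings, among them without implanted PBS replicate 2 (0.31, adjusted p = 0.152), without implanted cGAMP replicate 1 (0.45, adjusted p = 0.0889) and in the fit on implanted libraries alone (adjusted p = 0.0727). After PBS Irf1 was 1.79-fold higher in implanted tumours (0.84 ± 0.14, adjusted p = 0.00933), a call lost without either spontaneous PBS library (adjusted p = 0.0552 and 0.0509) and with no filter on low values. After cGAMP the difference of 0.42 ± 0.14 was not called (adjusted p = 0.0854).

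Irf2, which opposes Irf1 at shared sites, varied little. It was at 125 and 133 CPM in spontaneous PBS, 134 and 119 CPM in spontaneous cGAMP, 108 and 102 CPM in implanted PBS, and 126 and 134 CPM in implanted cGAMP. Implanted PBS was the lowest group, below every other library. The response in implanted tumours, 0.30 ± 0.09, passed the test (adjusted p = 0.0352), but adjusted p ranged up to 0.184 over the other settings and the call was lost without any 1 of the implanted libraries other than cGAMP replicate 1. The response in spontaneous tumours was -0.03 ± 0.09 (adjusted p = 0.877), with a 95% confidence interval of -0.23 to 0.17, and its sign changed with the scaling (0.07 with median-of-ratios).

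Irf3, the factor that STING signalling activates by phosphorylation, showed no rise in its transcript. Its level was 47.4 and 46.4 CPM in spontaneous PBS, 35.6 and 36.1 CPM in spontaneous cGAMP, 38.2 and 42.9 CPM in implanted PBS, and 29.2 and 35.1 CPM in implanted cGAMP. In each model both cGAMP libraries lay below both PBS libraries. Groups were fully separated, in either direction, for 60.3% of all genes in the spontaneous and 63.1% in the implanted response. The differences were -0.38 ± 0.12 (adjusted p = 0.0640) and -0.33 ± 0.12 (adjusted p = 0.0677), just outside the threshold. The spontaneous difference passed it under several settings, among them the fit on UMIs summed per library (adjusted p = 0.00658), with a range of 0.00658 to 0.323 over all settings. The implanted difference passed it in 3 settings, with the lowest adjusted p, 0.0219, in cells with at least 2000 UMIs. The median of all genes was -0.10 in both responses. With median-of-ratios scaling, which centres it near 0, the Irf3 differences were -0.28 (adjusted p = 0.184) and -0.23 (adjusted p = 0.206). Phosphorylation was not measured here.

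**Figure D2:**
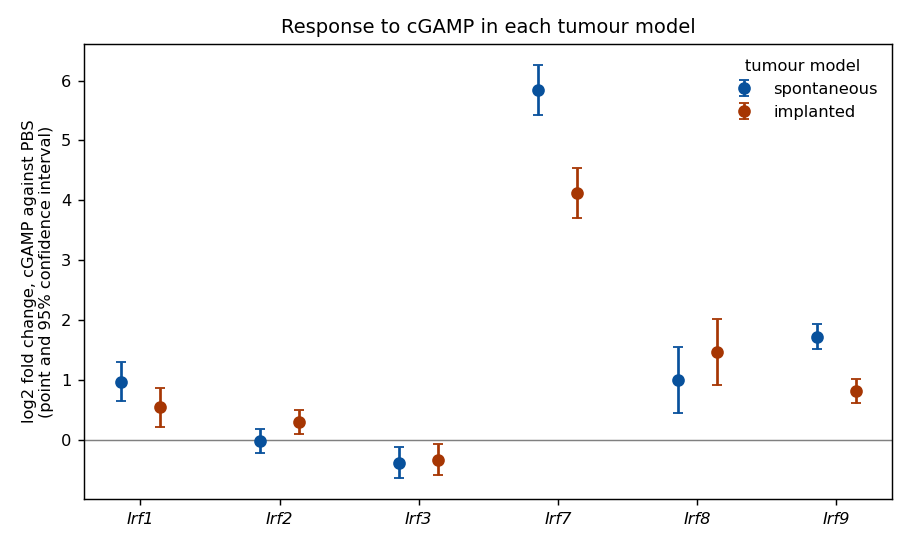
Log2 fold change of the 6 tested genes, cGAMP against PBS (vertical axis), in spontaneous and implanted tumours. Points are limma estimates and bars 95% confidence intervals. Irf7 lay at 5.85 and 4.12, Irf9 at 1.72 and 0.82, and Irf3 below 0 in both models.

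Irf8, a partner of the factors PU.1 and BATF in leukocytes, was the 1 member called between the models after cGAMP, with the higher level in implanted tumours. It was at 35.8 and 36.3 CPM in spontaneous PBS, 81.0 and 66.4 CPM in spontaneous cGAMP, 83.9 and 42.7 CPM in implanted PBS, and 159 and 176 CPM in implanted cGAMP. Both implanted cGAMP libraries lay above all others, and implanted PBS overlapped spontaneous cGAMP. The response was 1.005 ± 0.25 (adjusted p = 0.0287) in spontaneous tumours, a call lost without any 1 of the 4 spontaneous libraries (adjusted p 0.0864 to 0.176) and in thinned cells (adjusted p = 0.102), and 1.46 ± 0.25 (adjusted p = 0.00267) in implanted tumours. The difference of the responses, 0.46 ± 0.35, did not pass the test (adjusted p = 0.613, 95% confidence interval -0.32 to 1.24), and it was -0.02 without implanted PBS replicate 2. Between models, Irf8 was 2.26-fold higher in implanted tumours after cGAMP (1.18 ± 0.25, adjusted p = 0.0152). That call was lost in 4 settings, among them without either spontaneous cGAMP library and without cells marked as another type. After PBS the difference was 0.72 ± 0.25 (adjusted p = 0.109). The Irf8 gene overlaps the predicted gene Gm20388 on the same strand.

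Because Irf8 and Irf5 are known from leukocytes, their levels were set beside the leukocyte marks. Pecam1-positive cells with no leukocyte mark held 35.4 and 36.1 CPM of Irf8 in spontaneous PBS, 77.7 and 66.0 CPM in spontaneous cGAMP, 83.4 and 42.1 CPM in implanted PBS, and 155 and 175 CPM in implanted cGAMP. The Irf8 levels were nearly as high without the marked cells. A leukocyte in which too few markers were detected stays among the unmarked cells. These levels therefore do not settle the part of leukocytes, which was not tested. Cells with no Pecam1 or Cdh5 UMI but at least 3 epithelial markers held 23.0 CPM of Irf8 in 99 cells pooled over the groups, and 7 of these (7.07%, median 1554 UMIs per cell) had an Irf8 UMI. In spontaneous PBS it was 2 of 24 such cells (8.33%, median 2582.5 UMIs per cell). Thinned to 2000 UMIs, the share of ECs with an Irf8 UMI was 6.37% and 8.84% in spontaneous PBS, whereas the epithelial-marked cells were not thinned. It was 12.8% and 11.1% in spontaneous cGAMP, 12.8% and 7.21% in implanted PBS, and 26.7% and 25.7% in implanted cGAMP.

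Irf5, which acts below Toll-like receptors, was close to the limit of detection and did not pass the filter of 5 CPM in 2 libraries. Its UMIs numbered 2 and 3 in spontaneous PBS, 11 and 11 in spontaneous cGAMP, 6 and 0 in implanted PBS, and 62 and 47 in implanted cGAMP, at 5.24 and 3.47 CPM in the last group and at most 0.793 CPM elsewhere. The 0 in 1097 cells of implanted PBS replicate 2 allows a share of up to 0.273% of cells with a UMI. Both implanted cGAMP libraries lay above all others, and no test was made. Leukocyte-marked cells of implanted cGAMP held 15.03 CPM of Irf5, and the cells without a mark held 2.80 and 2.73 CPM in the 2 libraries, still above the highest value in any other library. The tip marker group described below held 56 of the 109 UMIs of implanted cGAMP, in 25 of its 194 cells, and 3 of these 25 cells carried a leukocyte mark. In implanted cGAMP as a whole, 20 of the 67 cells with an Irf5 UMI carried one. The tip group was singled out after its values were seen. In cells without Pecam1 or Cdh5, Irf5 had 0 UMIs in 99 epithelial-marked and 84 mural-marked cells, which allows shares of up to 3.03% and 3.57%. Their median depths were 1554 and 9144.5 UMIs per cell, and they were not compared with ECs at equal depth.

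Counted together, 6 of the 7 members passed the filter, and cGAMP raised 4 of the 6 in spontaneous and 5 of the 6 in implanted tumours, with none called lower. PBS and cGAMP libraries were fully separated for 5 of the 6 in the spontaneous and 6 of the 6 in the implanted response, as they were for 60.3% and 63.1% of all genes. Of all genes tested, 12.7% were called in the spontaneous response (5.09% higher, 7.59% lower) and 25% in the implanted response (8.6% higher, 16.4% lower). The median of the 6 members was 0.99 and 0.68, beside -0.10 over all genes in each response. The difference of the responses was called for 2 of 6, both lower in implanted tumours, against 0.662% of all genes (0.46% lower). After PBS 3 of 6 were higher in implanted tumours (7.83% of genes called, 3.39% higher and 4.44% lower, 58% with separated groups), and after cGAMP 1 of 6 was (13.8% called, 5.23% higher and 8.53% lower, 57.1% with separated groups). The contrasts share libraries and are not independent of each other. A lower count of cells of one kind and a lower level per cell cannot be told apart in such library means.

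**Figure D3:**
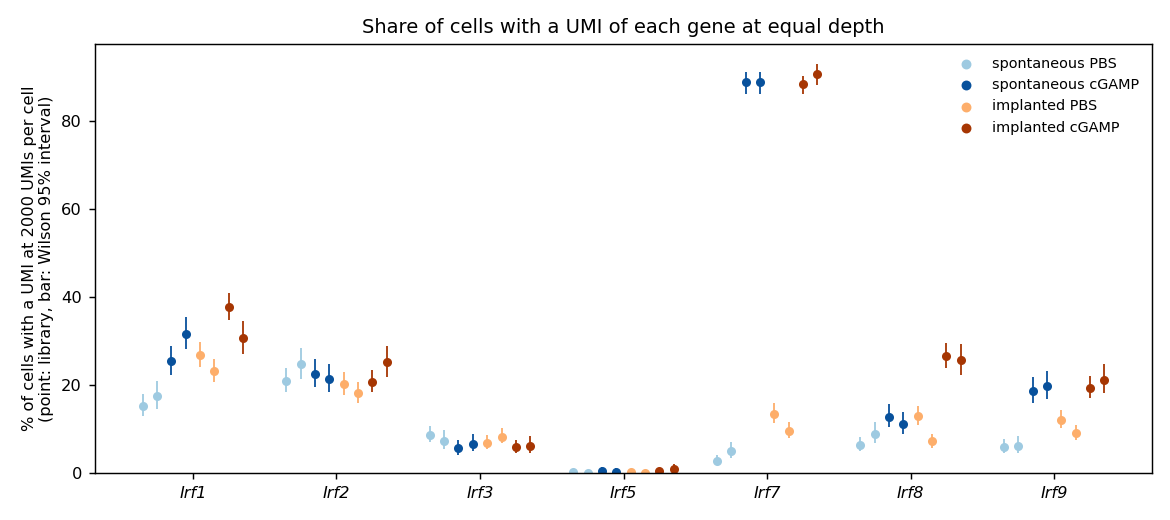
Share of Pecam1-positive cells with at least 1 UMI of each gene (vertical axis, percent), after each cell was thinned to 2000 UMIs. Points are libraries and bars Wilson 95% intervals, which cover counting error only. Irf7 moved from at most 13.5% after PBS to at least 88.4% after cGAMP.

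The number of members seen per cell was also higher after cGAMP, with Irf7 among those counted. At 2000 UMIs the Irf7 share alone was at most 13.5% of cells after PBS and at least 88.4% after cGAMP. The number of members without Irf7 was not counted. At 2000 UMIs a cell held UMIs of 0.601 and 0.693 members on average in spontaneous PBS, 1.74 and 1.80 in spontaneous cGAMP, 0.924 and 0.756 in implanted PBS, and 1.99 and 2.01 in implanted cGAMP. No member was seen in 52.8% and 46.2% of spontaneous PBS cells and 39.8% and 43.3% of implanted PBS cells, against 3.54% to 4.63% in the cGAMP libraries. At least 3 members were seen in 27.92% and 27.96% of implanted cGAMP cells, in 18.2% and 20.7% of spontaneous cGAMP cells, and in at most 7.03% after PBS. Cells under 2000 UMIs were left out, 580 of them in implanted cGAMP replicate 1 and 22 to 102 in the others.

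Levels of Irf7, Irf8 and Irf9 were called different in some vessel-type groups, at the edge of what the test allows, and those of the other members were not. Cells were grouped by the markers they carried, at least 2 of the 6 markers of a list and more than of any other list. This gave 1114 arterial, 1698 AQP7-type capillary, 1788 venous, 495 tip, 162 proliferative and 343 lymphatic cells, and 1559 cells in no group. The groups are ranges of a marker count and not types. The numbers of cells that held exactly 2 markers of their list were 26, 240, 89, 38, 2 and 32 in the same order, and arterial-group cells also carried a median of 3 capillary and 2 venous markers. Several markers themselves moved with cGAMP, so group sizes were not compared. In each library, a member's level in the group was set against all its other Pecam1-positive cells, as the difference of log2(CPM + 10), and tested over libraries with an exact two-sided sign-flip permutation test, adjusted over 42 pairs of member and group.

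Irf8 was the member with the widest differences between vessel types. It was lower in arterial-group cells in 8 of 8 libraries (mean log2 difference -1.80 ± 0.40, SD, n = 8). In spontaneous PBS only 1 and 3 Irf8 UMIs were found in 146 and 86 arterial-group cells, at 0.376 and 1.52 CPM, against 42.1 CPM in the other cells of both libraries. Arterial-group levels were 30.8 and 15.1 CPM in spontaneous cGAMP, 13.5 and 8.61 CPM in implanted PBS, and 56.3 and 64.9 CPM in implanted cGAMP, where the other cells held 173 and 200 CPM. The arterial-group level was higher after cGAMP than after PBS in both models, and in all 8 libraries it stayed below that of the other cells.

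Lymphatic-group and tip-group cells had the highest Irf8 levels. In lymphatic-group cells, Irf8 was at 292 and 120 CPM in spontaneous PBS, 302 and 164 CPM in spontaneous cGAMP, 160 and 91.2 CPM in implanted PBS, and 253 and 509 CPM in implanted cGAMP, from 18 to 147 cells. It was higher than in the other cells in 8 of 8 libraries (mean log2 difference 1.503 ± 0.72). In tip-group cells it was at 115 and 87.5 CPM, 157 and 195 CPM, 218 and 70.4 CPM, and 305 and 288 CPM in the same order of groups, higher in 8 of 8 libraries (1.16 ± 0.35). Leukocyte-marked cells made up 12.8% of the lymphatic and 9.90% of the tip group, and 3.68% of the arterial group, and their part in these differences was not tested. The implanted response of Irf8 was still called when the tip and lymphatic groups were both left out, an alternative chosen after seeing the data. Among the groups that stayed in, arterial, AQP7-type and venous cells of implanted tumours also held more Irf8 after cGAMP than after PBS. The setting therefore does not show what part the mix of cells had in the response, which was not tested.

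**Figure D4:**
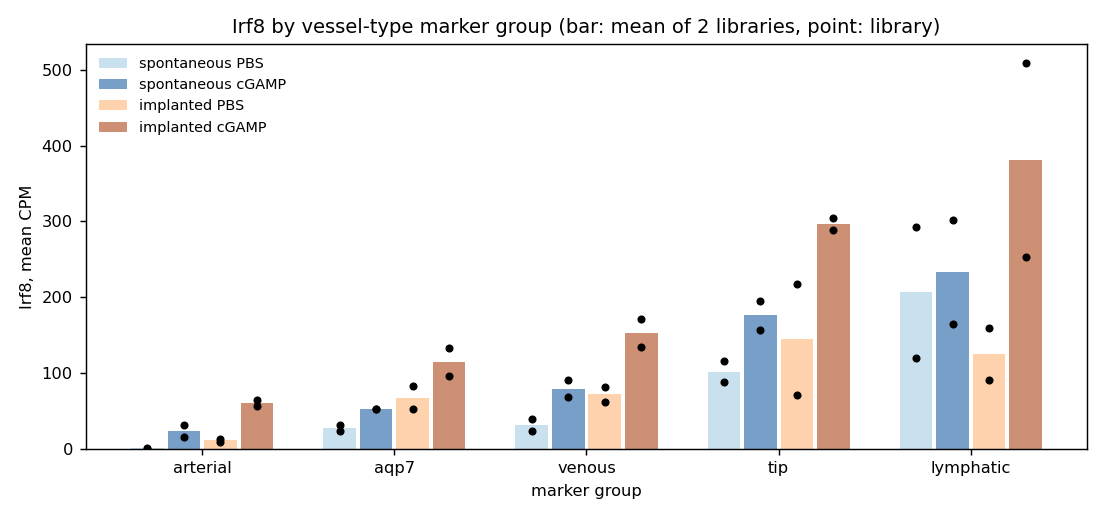
Irf8 level in CPM (vertical axis, from 0) in 5 vessel-type marker groups. Bars are means of 2 libraries and points the libraries. Arterial-group cells held the lowest level in each of the 4 groups of libraries, and lymphatic-group or tip-group cells the highest.

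Irf7 and Irf9 differed less between vessel types. Irf7 was lower in venous-group cells in 8 of 8 libraries (-0.59 ± 0.41). Venous-group levels were 7.79 and 8.87 CPM in spontaneous PBS and 64.8 and 34.9 CPM in implanted PBS, against 25.1, 32.7, 108 and 75.2 CPM in the other cells. After cGAMP they were 1240 and 1121 CPM in spontaneous and 1239 and 1328 CPM in implanted tumours, against 1475, 1500, 1286 and 1582 CPM, so the log2 difference was -1.18 to -0.66 after PBS and -0.42 to -0.05 after cGAMP. Irf7 was higher in tip-group cells in 8 of 8 libraries (0.62 ± 0.74), from a difference of 0.02 in implanted cGAMP replicate 1 to 2.18 in spontaneous PBS replicate 1. Irf9 was lower in venous-group cells (-0.22 ± 0.10, 0 of 8 libraries higher) and higher in lymphatic-group cells (0.50 ± 0.16, 8 of 8).

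These 7 pairs were those with p = 0.0078125, the smallest that 8 libraries allow, and each had an adjusted p of 0.046875 by this exact test. They pass together, since the adjusted value depends on how many pairs reach the smallest p. At least 20 cells per library, or at least 3 markers, left 0 of them called, with no direction changed. Only the 7 members were tested in this way, so the share of all genes with such differences between marker groups is not known. Median depth per cell also differed, from 7446.5 UMIs in the AQP7-type group to 18179.5 in the proliferative group, and its part was not tested. In the proliferative group only 3 libraries held 10 cells, so the smallest p was 0.25, and the difference of Irf1 there was -1.34 to -0.64. No difference of Irf1, Irf2, Irf3 or Irf5 passed the test in any group, and the SD over libraries was 0.220 for Irf3 in arterial cells and 0.474 for Irf1 in lymphatic cells.

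**Figure D5:**
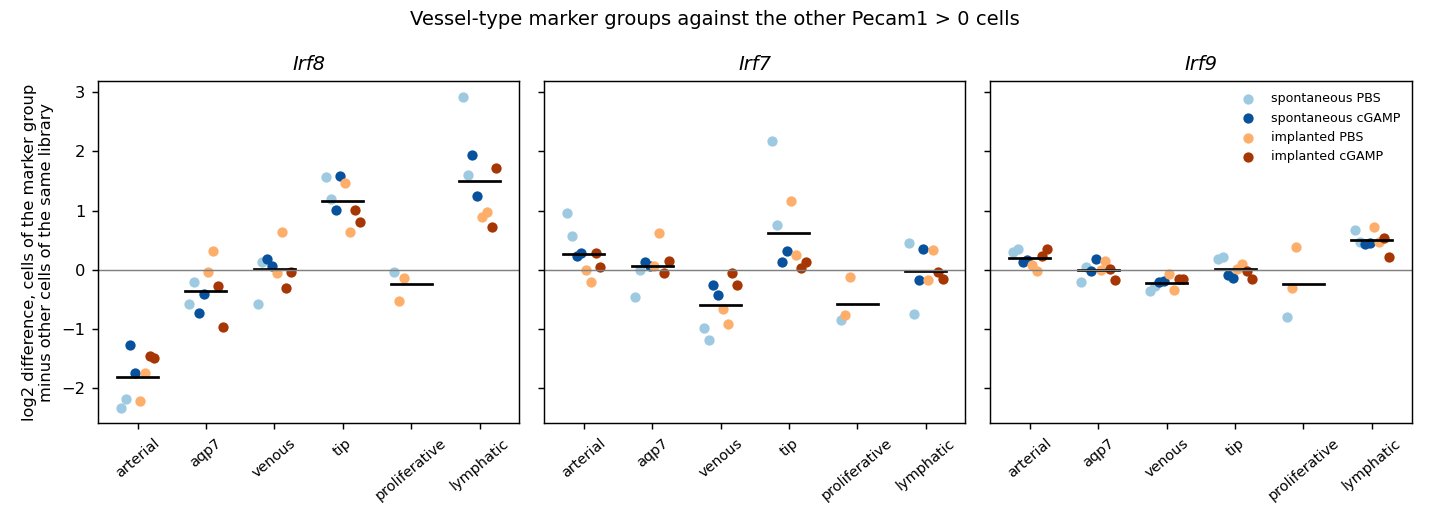
Difference of log2(CPM + 10) between cells of a marker group and the other cells of the same library (vertical axis) for Irf8, Irf7 and Irf9. Points are libraries coloured by group and black lines are means. Irf8 lay below 0 in all 8 libraries for the arterial group and above 0 in all 8 for the tip and lymphatic groups.

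Genes that act around the members were described from lists, which were chosen with earlier results of these data known. Of all genes tested, 5.09% were called higher in the spontaneous and 8.6% in the implanted response. Upstream of the factors, 12 of 15 genes were tested and cGAMP raised 4 in spontaneous and 7 in implanted tumours, with none lower. The RNA sensors Ifih1 (2.60 and 2.27) and Ddx58 (1.44 and 1.20) and the endosomal sensor Tlr3 (0.87 and 0.94) rose in both, and Tbk1, the kinase of IRF3, rose in implanted tumours (0.67). Mb21d1, which encodes the cGAMP synthase, was at 0.02 in spontaneous tumours and did not pass the test. Of 8 interferon genes, 2 were found and neither was tested. Ifnb1 was at 0 in the 6 libraries other than implanted cGAMP, where it was at 0.0165 and 1.49 CPM.

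Among interferon receptor and signalling genes, Stat2 (2.26 and 1.62), a partner of IRF9, rose in both models, Jak2 rose by 0.44 in implanted tumours, and the receptor subunit Ifnar1 fell by 0.53 there. Of 9 tested partners and regulators, 3 rose in both models, where 5.09% and 8.6% of all genes were called higher. They were Usp18 (3.96 and 3.45), which limits interferon receptor signalling, Batf2 (2.77 and 1.65) and the ubiquitin ligase Trim21 (1.62 and 1.46). Irf4, a family member outside the 7, did not pass the filter, with group means of at most 0.755 CPM.

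The 22 genes listed as targets of these factors moved furthest, with 20 higher in spontaneous and 18 in implanted tumours and none lower, and medians of 3.61 and 1.82. Of all genes, 5.09% and 8.6% were called higher. This list too was chosen with earlier results of these data known, so its rise is no independent result. Ccl5, a T cell chemokine, rose by 9.87 and 9.29, and Ifit3, an antiviral effector, by 5.81 and 3.68. The response was smaller in implanted tumours for 7 of the 22, and called lower there for 0.46% of all genes. After PBS 19 of 22 were higher in implanted tumours, with a median of 1.83 against -0.06 over all genes, and after cGAMP 8 of 22 were. Of all genes, 3.39% were called higher there after PBS and 5.23% after cGAMP. Icam1, an adhesion molecule, was at 0.09 and 0.17 in the 2 responses and did not pass the test.

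Profiles over the 8 libraries were compared by the root mean square difference of centred log2(CPM + 1) over 8373 genes of at least 10 CPM. The genes most like Irf7 were Ifit3b (0.23), Ifit1 (0.26) and Ifit3 (0.32), where the spread of Irf7 itself was 2.75 (SD). For Irf9 they were Ly6e (0.15), Gm8909 (0.17) and Ogfr (0.17), for Irf8 Il15 (0.15), Slc16a3 (0.19) and Tnfrsf23 (0.20), and for Irf1 Psme2 (0.10), Casp12 (0.13) and Tapbpl (0.14). Irf2 and Irf3 varied little, with SDs of 0.15 and 0.23, and their nearest genes were March7 (0.04) and Tjp1 (0.06). The libraries are shared by all genes, and these likenesses are descriptions over 8 points.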

How the data were processed

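ECs sorted from breast tumours were profiled one by one with 10x Chromium 3′ v3 kits. Per the labels and methods, the authors used Cell Ranger 3.0.0, mm10 and Seurat 3.1.1, and removed cells with few genes or a high mitochondrial share. Each deposited table holds natural log values of 1 library, the ln of 1 plus the UMIs of a gene scaled to a fixed total per cell. UMIs were worked back from these and were whole for 100% of values within a tolerance of 0.01. All value columns belonged to a sample, with 0 unused. The deposited values are not counts, and no count model was run on the UMIs worked back from them.

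Mean CPM over Pecam1-positive cells were compared as log2(CPM + 1) with limma 3.58.1 (R 4.3.3, eBayes with trend). All 8 libraries entered 1 fit, which gives a shared estimate of the spread. It covered 10424 genes that reached 5 CPM in 2 libraries or more, with Benjamini-Hochberg adjusted p values called at 0.05. Errors are SE for fold changes and SD for levels. Live ECs came from 2 mice per group, but no source ties a library to a mouse, so p values measure the spread between libraries, which may be technical. Vessel-type groups were compared within libraries by an exact sign-flip permutation test. Wilson and floor values cover counting error only.

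The members and lists were chosen with earlier results of these data known. All 7 members are named, from each list at most the 4 genes with the largest and the 2 with the smallest change, and for each member at 10 CPM or more the 3 genes with the most similar profile. Alternatives covered the cells used, depth per cell, scaling, filter, pseudocount, replicate block and each library left out. Some genes of the lists are not reported here.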

Additional observations from a re-analysis of the deposited data

Results flagged for a closer look

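The responses of Irf7 and Irf9 to cGAMP differed between the tumour models by a test of the difference itself. The response in implanted minus that in spontaneous tumours was -1.72 ± 0.26 for Irf7 (limma, adjusted p = 0.0290, 0.00352 to 0.192 over the other settings) and -0.91 ± 0.13 for Irf9 (adjusted p = 0.0241, 0.01002 to 0.333 over the other settings). All 4 cGAMP libraries lay above all 4 PBS libraries for both genes. Gaps of single libraries were not assessed by Dixon's test, since each group holds only 2 libraries.

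Irf7 was also high after cGAMP in cells outside the Pecam1-positive cells compared here, which enter only the setting with all deposited cells. They are those with no UMI of Pecam1 or Cdh5 and no leukocyte mark. With at least 3 mural markers, such cells held 1162 CPM of Irf7 in spontaneous cGAMP (57 cells) and 33.8 CPM in spontaneous PBS (27 cells). With at least 3 epithelial markers, they held 891 CPM in spontaneous cGAMP (28 cells) and 20.5 CPM in spontaneous PBS (24 cells), and 1048 CPM in implanted cGAMP (34 cells) and 51.2 CPM in implanted PBS (13 cells). These values are pooled over the libraries of a group and carry no test, and the part of free RNA in them was not tested.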

How the results depend on the processing

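The number of members called in the implanted response, 5, fell to 3 without cells that carry markers of any other cell type and to 3 in a fit on the 4 libraries of that model alone, and was 3 to 5 with single libraries left out, lowest without implanted PBS replicate 2. The difference of the responses, called for 2 members, was called for 1 without cells marked as another type, for 1 in cells thinned to 2000 UMIs and for 0 by limma with no filter on low values (3 of the 6 at an unadjusted p under 0.05). It was called for 0 to 2 with single libraries left out, 0 without any 1 of the 4 spontaneous libraries (2 to 3 unadjusted) and 1 without implanted PBS replicate 1. Between the models after PBS, the 3 calls became 2 to 4 over all settings, 2 without either spontaneous PBS library. Between them after cGAMP, the 1 call became 0 by limma without cells marked as another type (2 unadjusted), and 0 to 2 with single libraries left out, 0 without either spontaneous cGAMP library (2 unadjusted) and 2 without either implanted PBS library. The cells marked as another type make up 4574 of 7159, from 43.2% in implanted cGAMP replicate 2 to 86.0% in spontaneous cGAMP replicate 1. The setting without them keeps 94 to 666 cells per library. The 7 calls between vessel-type groups fell to 0 by the exact sign-flip test with at least 3 markers (11 unadjusted), to 0 without cells marked as another type (7 unadjusted) and to 0 with at least 20 cells per library (11 unadjusted). The cause of these changes was not tested. No value that passed the test changed sign in any setting.

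Counts over all genes moved more. The spontaneous response called 1322 genes, and 521 without cells marked as another type, 705 in thinned cells, 812 with no filter, 2839 with summed UMIs and 448 to 1808 with single libraries left out. The implanted response called 2609, and 774, 1410 in the first 2 of these settings and 1265 to 2495 with single libraries left out. The difference called 69, and 17 without cells marked as another type, 43 in all deposited cells, 0 with no filter, 112 with summed UMIs and 2 to 171 with single libraries left out. Between the models the counts ranged from 212 to 1317 after PBS (816) and from 156 to 2069 after cGAMP (1434). Median-of-ratios scaling moved higher calls from 531 of 1322 to 666 of 1003 in the spontaneous and from 896 of 2609 to 1178 of 2288 in the implanted response, and between the models from 353 of 816 to 509 of 750 after PBS and from 545 of 1434 to 767 of 1307 after cGAMP.

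With the replicate number as a replicate block, the members called were 4, 5, 2, 3 and 1, the same calls as without it, and 1230 and 2524 genes were called in the 2 responses. Deviations of samples with the same number correlated at -0.27 to 0.12, so no pairing by number was seen. With 2 libraries per group, such deviations cannot show whether samples with the same number shared a batch. A group reduced to 1 library is assumed to vary like the others. Leaving out the tip and lymphatic groups, chosen after seeing the data, lost the Irf2 call (0.25, adjusted p = 0.0711) and added Irf8 after PBS (0.92, adjusted p = 0.0245). Depth limits Irf5, with 0 to 62 UMIs per library, and Irf8 in arterial-group cells after PBS.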
